A study of Mus musculus with 4 samples.

Results

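Mature natural killer (NK) cells of mouse blood are described here, 423 of 15439 cells that passed the filters and of 16157 deposited barcodes. They were chosen by UMIs (unique molecular identifiers, each standing for 1 captured RNA molecule). A barcode with at least 200 genes and at most 10% mitochondrial UMIs counted as an NK cell when Ncr1, Klrb1c and Klre1 together gave at least 2 UMIs. It also needed at most 1 UMI over Cd3d, Cd3e and Cd3g, at most 1 over Cd79a, Cd79b and Ms4a1, and 0 over Csf1r, Ms4a6c and Csf3r. This gate held 695 cells. An NK cell was called mature when the UMIs of Klrg1, Cma1, S1pr5 and Itgam outnumbered those of Cd27, Xcl1, Emb and Ctla2a. In 187 cells the second sum was the greater, and these are called less mature. In 85 cells the sums were equal, and these belong to neither class.

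The cells came from C57BL/6J mice aged 10 weeks that carried acute lymphoblastic leukaemia and received dasatinib, a tyrosine kinase inhibitor that acts on ABL and SRC family kinases. Blood leukocytes were taken 1 week into treatment, when every mouse was in remission, and were frozen, thawed and live-sorted. Dasatinib went on for 4 more weeks, and 6 mice were classed as Cured and 6 as Relapsed on day 100, so outcome was known only after sampling. Each library pooled 3 mice, which gave 2 Cured and 2 Relapsed libraries, and every group carried the leukaemia and received the drug. Cells of the 3 mice in a pool cannot be separated, and untreated or leukaemia-free mice were not analysed here.

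NK cells are innate lymphocytes that kill infected or transformed cells by releasing perforin and granzymes, and that secrete chemokines and cytokines. In mice they mature from CD27-bearing cells towards cells that carry KLRG1 and CD11b (Itgam), and S1PR5 lets the mature cells leave the marrow for blood. The Ly49 receptors, encoded by the Klra genes, bind MHC class I and tune the response. T-bet, EOMES and ZEB2 are transcription factors of this maturation, and RUNX factors act in NK development.

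Promoters of the granule genes that were higher in mature than in less mature cells are printed first. That of Il7r, the gene with the largest fall, is added. The gene levels and tests below do not use these promoters. Each runs 5′ to 3′ over 300 bases, 250 before and 50 after the RefSeq start (GRCm38.p6). Capitals mark GGTGTGA, a T-box letter string, or TGTGGTT, a RUNX letter string, on either strand.
Gzma, chr13:113100932-113101231, minus strand: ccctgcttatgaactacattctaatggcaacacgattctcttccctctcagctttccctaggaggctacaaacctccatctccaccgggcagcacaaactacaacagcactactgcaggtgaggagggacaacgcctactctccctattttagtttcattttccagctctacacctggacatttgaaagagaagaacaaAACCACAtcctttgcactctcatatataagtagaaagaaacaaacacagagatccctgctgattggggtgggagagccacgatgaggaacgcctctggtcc
Gzmb, chr14:56262285-56262584, minus strand: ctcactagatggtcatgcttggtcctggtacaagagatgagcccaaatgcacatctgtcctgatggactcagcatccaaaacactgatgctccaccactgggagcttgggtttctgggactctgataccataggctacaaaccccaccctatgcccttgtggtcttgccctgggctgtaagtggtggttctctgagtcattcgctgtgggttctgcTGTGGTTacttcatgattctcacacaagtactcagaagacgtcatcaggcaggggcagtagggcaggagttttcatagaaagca
Prf1, chr10:61297586-61297885, plus strand: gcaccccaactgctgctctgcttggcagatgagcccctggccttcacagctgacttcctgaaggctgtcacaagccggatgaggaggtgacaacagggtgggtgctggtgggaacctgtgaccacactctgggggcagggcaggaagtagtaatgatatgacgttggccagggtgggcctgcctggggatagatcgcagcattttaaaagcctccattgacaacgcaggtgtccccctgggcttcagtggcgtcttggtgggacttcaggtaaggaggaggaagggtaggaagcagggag
Nkg7, chr7:43436888-43437187, plus strand: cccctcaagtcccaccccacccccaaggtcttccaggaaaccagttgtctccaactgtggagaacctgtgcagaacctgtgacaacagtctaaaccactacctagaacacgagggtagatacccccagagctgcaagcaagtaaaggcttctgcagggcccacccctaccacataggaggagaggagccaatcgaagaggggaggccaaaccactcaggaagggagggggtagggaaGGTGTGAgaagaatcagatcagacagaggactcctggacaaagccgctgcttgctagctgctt
Il7r, chr15:9529827-9530126, minus strand: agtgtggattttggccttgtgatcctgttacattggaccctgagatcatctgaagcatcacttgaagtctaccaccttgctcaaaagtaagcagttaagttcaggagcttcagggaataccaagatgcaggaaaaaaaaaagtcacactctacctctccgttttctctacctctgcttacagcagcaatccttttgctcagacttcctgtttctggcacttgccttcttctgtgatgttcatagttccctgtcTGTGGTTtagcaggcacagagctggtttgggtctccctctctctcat
The Gzma, Gzmb and Il7r windows each held 1 RUNX match, on the opposite strand in Gzma and on the printed strand in the other two. The Nkg7 window held 1 T-box match, and the Prf1 window held neither string. TGTGGTT was found for 5 of 26 genes higher in mature cells with a promoter sequence (19.2%) and for 5 of 28 lower ones, ribosomal protein genes left out (17.9%), against 5.58% of the 1523 tested genes with a sequence and 6.09% of 27025 genes in all. GGTGTGA was found for 1 of 26 and 2 of 28, against 3.61% and 4.60%. In all 6 strings were searched, and these 2 were chosen for display after every match had been seen. The others were AGGTGTGA (1 of 26 and 1 of 28, against 1.05% of tested genes) and GTGTGA (4 and 3, against 13.5%), both overlapping the T-box string, and the ETS strings CGGAAGT (0 and 3, against 19.0%) and GGAAGTG (2 and 5, against 20.9%). A match describes letters in a window and is not a binding site. In the GENCODE M21 annotation, Il7r on the minus strand reaches chr15:9530176, upstream of the whole printed window. The Il7r window therefore lies inside the gene by that annotation, although it surrounds the RefSeq start.

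Mature cells numbered 101 and 105 in Cured replicates 1 and 2, and 90 and 127 in Relapsed replicates 1 and 2. Their median depth was 1979 and 1904 UMIs in the Cured libraries, against 1539 and 1764 in the Relapsed libraries, so both Cured libraries were deeper. Summed over cells they held 217651, 214134, 152665 and 234283 UMIs, in that order of libraries, which is kept below. Levels are CPM, the counts of a gene scaled to a common total for each such sum, so differences between genes also reflect how well each is captured. No mature cell barcode was found among the mature cells of another library, and 4 of 423 barcodes were listed in another library at all.

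The label was checked against markers. All 6 markers given for these cells (Ncr1, Klrb1c, Klrg1, Cma1, Gzma and Prf1) and all 11 genes of an NK list had UMIs in every library. Ncr1, Klrb1c, Klrg1 and Cma1 of the given markers and Klre1 of the NK list helped to choose the cells, so their presence is no check. Of 12 T cell markers, 5 or 6 had UMIs in mature cells of each library, with a sum of 210 to 321 CPM, against 291 to 381 CPM in less mature cells, and the most widespread was found in 13.3% to 24.4% of mature cells. Cd8a, Cd8b1, Cd4, Cd5 and Cd6 were at 0 in mature cells of every library, as was Cd3e, which the gate limits. Of 10 B cell markers, 7 to 9 had UMIs, with a sum of 248 to 388 CPM, against 287 to 435 CPM in less mature cells, and the most widespread was found in 15.7% to 33.7% of mature cells. The source of these T and B cell marker UMIs was not tested. Further, 7 markers of type 1 innate lymphoid cells summed to 4.67 to 34.2 CPM. In Relapsed replicate 1, 1 mature barcode carried 1194 red cell marker UMIs of 2419 and another carried 376 neutrophil marker UMIs of 2944. Counts of genes past the tests are therefore also given without them.

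The threshold cut through a continuous range, drawn in the plot of gated NK cells by the difference between the 2 sums. Just inside it, 121 mature cells had a difference of 1 UMI, while 85 cells had none and 68 less mature cells lay 1 UMI on the other side. Gzma averaged 21383 CPM over libraries in mature cells 1 UMI inside, 23662 at 2 to 3 and 24990 at 4 or more. Gzmb averaged 876, 1140 and 1295 CPM over the same steps, and Prf1, which encodes perforin, 714, 768 and 940. Cd7, a surface receptor of lymphocytes, averaged 583, 505 and 291 CPM. Cx3cr1, a chemokine receptor of mature circulating NK cells, averaged 25.7, 85.4 and 106 CPM. The order from the first step to the last held in all 4 libraries for Gzma, Cd7 and Cx3cr1, and in 3 of 4 for Gzmb and Prf1. Further genes that were higher in mature than in less mature cells, as given below, did not all rise. Ccl5 averaged 30096.6, 33008.8 and 36188.5 CPM over these steps, and Nkg7 5683, 5834 and 6210. Ly6c2 averaged 1708, 1580 and 1541 CPM, Klf2 647, 633 and 584, and Fcer1g 5275, 5112 and 4955. Zeb2 averaged 269, 241 and 293 CPM. These levels are a description with no test. Median depth was 1487.5 to 1833 UMIs in the first step and 1821 to 2303 in the last, and its part was not tested.

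**Figure D1:**
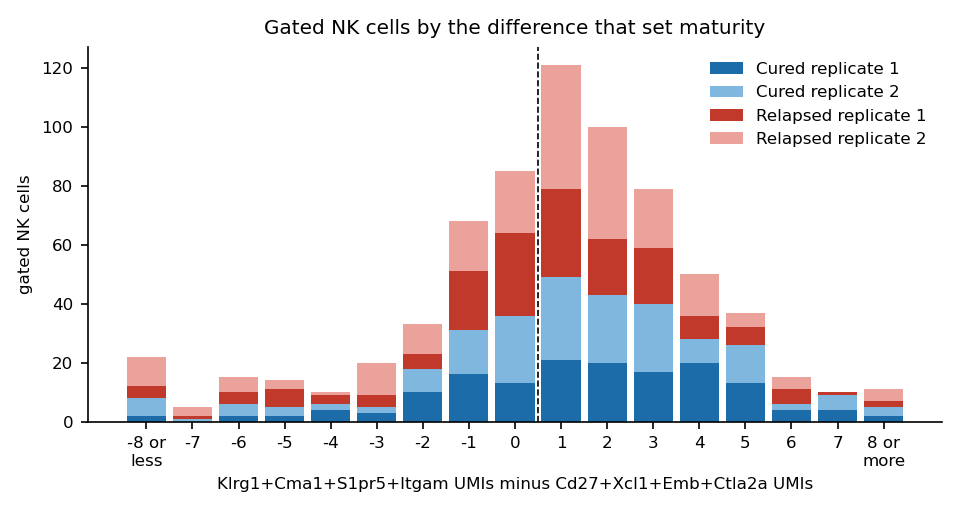
Number of gated NK cells (y axis) by UMIs of the mature sum minus UMIs of the less mature sum (x axis), stacked by library. The dashed line is the threshold: 423 cells lie to its right, and 121 of them are 1 UMI inside.

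**Figure D2:**
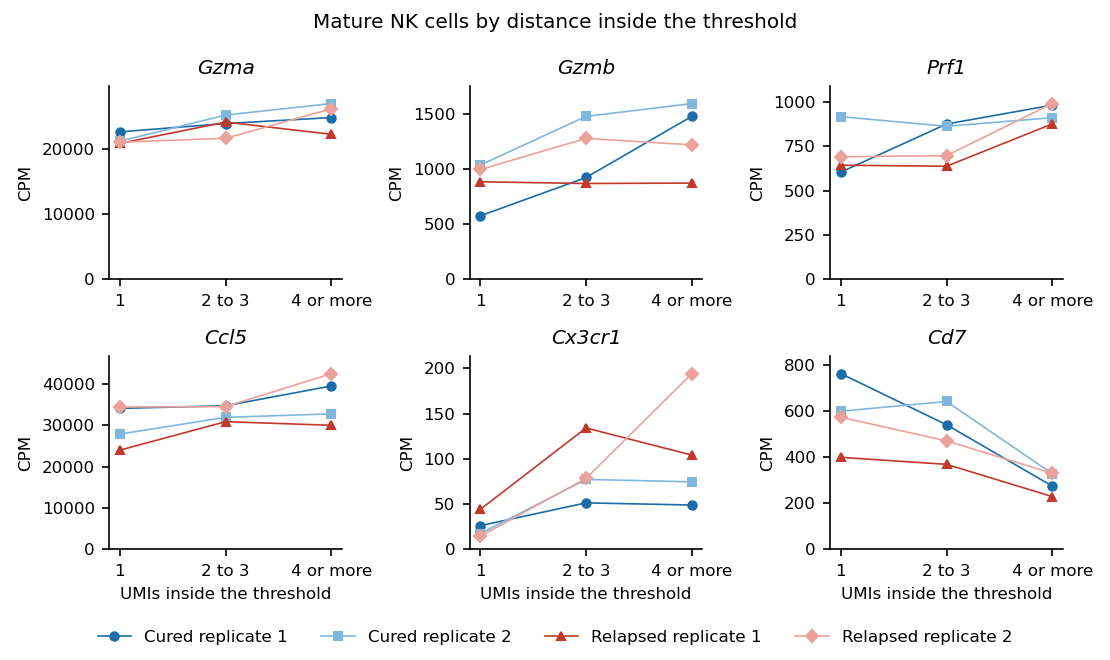
CPM of 6 genes outside the threshold sums (y axes) in mature cells 1, 2 to 3, and 4 or more UMIs inside the threshold (x axis), 1 line per library. Cd7 lies lower at 4 or more than at 1 in all 4 libraries.

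Mature cells were then set against less mature cells of the same libraries, with the 20 genes of the rule left out of the test. Of 1901 genes tested, 108 passed (5.68%), 34 higher (1.79%) and 74 lower (3.89%) in mature cells. Whether or not they passed, 216 genes (11.4%) were higher and 201 (10.6%) lower in mature cells in every library. Genes whose classes did not overlap are among these. Every p for a gene is the adjusted p of edgeR's quasi-likelihood test with the library as a block, and log2 fold changes are mature over less mature. Higher were granule genes, Ccl5, Lgals1, Ly6c2 and some Ly49 receptors. Lower were Il7r, Ltb, Thy1, Cd7, Ly6e and 39 of 84 tested cytosolic ribosomal protein genes. The less mature sums were smaller, with 39, 41, 47 and 60 cells, and their cells were deeper, at medians of 2217, 2419, 1772 and 1920 UMIs.

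The count moved with the fit: 80, 37, 97 and 81 genes passed without Cured replicates 1 and 2 and Relapsed replicates 1 and 2 in turn. DESeq2 called 28 of the 96 genes to which it gave an adjusted p, and 20 of 1901 with its independent filtering off. All 108 genes kept their sign in every alternative that tested them, and 12 of them passed in every one. Without the 2 mixed barcodes the count was 104, and 0 between Cured and Relapsed.

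Gzma, a granzyme with trypsin-like activity, had the second highest mean level of the genes tested in mature cells. It stood at 24052, 24634, 22520 and 22409 CPM in mature cells, against 13595, 12629, 12808 and 15056 CPM in less mature cells. The classes did not overlap, and the log2 fold change was 0.77 (SE 0.05, adjusted p = 3.78e-12). Gzmb, the caspase-activating granzyme, stood at 1126, 1401, 878 and 1187 CPM in mature cells, against 1017, 596, 365 and 482 CPM in less mature cells. It was higher in 4 of 4 libraries, with the smallest gap in Cured replicate 1 (0.92, SE 0.14, adjusted p = 3.13e-05). For detection at equal depth, cells were thinned to 1000 UMIs, and cells with fewer were left out. This kept 96, 99, 80 and 119 mature cells and 36, 40, 44 and 56 less mature cells. Of the mature cells kept, 56.2%, 63.6%, 56.2% and 57.1% had a Gzmb UMI, against 36.1%, 30.0%, 31.8% and 37.5% of the less mature cells kept. Unthinned, the shares were 66.7% to 79.0% of mature cells and 44.7% to 64.1% of less mature cells. In B-gated cells (at least 3 UMIs over Cd79a, Cd79b and Ms4a1 and none of the other gate genes), which should lack Gzmb, 0.0309% to 0.164% had a UMI at median depths of 1865.5 to 2348.

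Prf1 stood at 878, 892, 714 and 760 CPM in mature cells, against 727, 596, 254 and 536 CPM in less mature cells (log2 fold change 0.60, SE 0.13, adjusted p = 0.00484). Nkg7, a granule membrane protein needed for exocytosis, stood at 5780, 6276, 5725 and 5728 CPM in mature cells, against 4886, 5040, 5039 and 4692 CPM in less mature cells (0.24, SE 0.05, adjusted p = 0.00484). Both missed the threshold without Cured replicate 2. Of 13 tested genes of the granule list, 4 rose (Gzma, Gzmb, Prf1 and Nkg7), 1 fell (Srgn) and 8 did not pass, with a median log2 fold change of 0.29 against 0.00 over all genes tested. Srgn, the granule proteoglycan serglycin, was lower by test at -0.47 (SE 0.11, adjusted p = 0.00608) but not without Cured replicate 2 or Relapsed replicate 2. Serpinb9b, of a serpin family that inhibits granule proteases, was higher at 1.34 (SE 0.26, adjusted p = 0.000954) but not without Cured replicate 2.

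Among chemokines and cytokines, 1 of 8 tested genes rose and 2 fell. Ccl5, a chemokine that draws T cells and monocytes, had the highest mean level of the genes tested and stood at 36848, 31116, 28572 and 36238 CPM in mature cells, against 26900, 23265, 24269 and 21683 CPM in less mature cells. The classes did not overlap (log2 fold change 0.45, SE 0.05, adjusted p = 1.03e-06), and it passed in all 13 alternatives. Ltb, lymphotoxin beta, a cytokine of lymphoid tissue organisation, stood at 13.8, 9.34, 6.55 and 68.3 CPM in mature cells, against 112, 283, 133 and 256 CPM in less mature cells (-2.88, SE 0.33, adjusted p = 2.89e-07). B-gated cells held 910 to 1238 CPM of Ltb, and the part of free RNA in these low values was not tested. Ccl3 was at 111 to 163 CPM in mature cells and 186 to 343 CPM in less mature cells (-0.86, SE 0.20, adjusted p = 0.00587). Ccl4, a chemokine of activated NK cells, was at 290 to 491 CPM in mature cells and 872 to 3164 CPM in less mature cells, and did not pass (-2.40, SE 0.46, adjusted p = 0.125). It passed without either Cured replicate.

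Of 14 tested Ly49, NKG2 and NKR-P1 receptor genes, 2 rose and 1 fell. Klra9 stood at 547, 472, 590 and 512 CPM in mature cells, against 425, 283, 221 and 241 CPM in less mature cells (log2 fold change 0.85, SE 0.16, adjusted p = 0.000646). Klra3 was at 216 to 369 CPM against 145 to 234 CPM (0.79, SE 0.18, adjusted p = 0.00557), and Klra7 at 523 to 726 CPM against 723 to 831 CPM (-0.41, SE 0.12, adjusted p = 0.0279). Klra3 missed the threshold without Cured replicate 2, and Klra7 without either Cured replicate or Relapsed replicate 1. These genes are near-identical copies in 1 cluster, so reads may be split between them and all 3 values are uncertain. Klrd1, the CD94 subunit of NKG2 receptors, was at 1121 to 1284 CPM in mature cells and 1118 to 1142 CPM in less mature cells (0.05, SE 0.09, adjusted p = 0.870). Of the signalling adaptors, Fcer1g was higher at 0.22 (SE 0.06, adjusted p = 0.0178), but not without either Cured replicate, and Tyrobp was at -0.02 (SE 0.06, adjusted p = 0.906). Of 9 other activating and inhibitory receptors tested, the 2 that passed were lower. Tnfrsf9 was at -0.98 (SE 0.26, adjusted p = 0.0204), lost without either Cured replicate, and the inhibitory receptor Tigit at -0.96 (SE 0.29, adjusted p = 0.0472), lost without either Cured replicate or Relapsed replicate 1.

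Different Ly49 receptor genes with a UMI were counted per cell at 1000 UMIs, with shallower cells left out. Their number averaged 1.90, 1.91, 1.96 and 2.03 in mature cells, against 1.72, 1.45, 1.82 and 1.62 in less mature cells. Unthinned, the averages were 2.47, 2.57, 2.37 and 2.43 in mature cells, against 2.51, 2.24, 2.19 and 2.30 in less mature cells. The thinned average was higher in mature cells in 4 of 4 libraries and the unthinned one in 3 of 4, and no test covers it.

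Among 19 tested genes of trafficking and adhesion, 3 rose and 5 fell. Ly6c2, a surface protein of mature NK cells and of monocytes, stood at 1714, 2097, 1323 and 1319 CPM in mature cells, against 414, 547, 674 and 691 CPM in less mature cells. It did not overlap between the classes (log2 fold change 1.42, SE 0.14, adjusted p = 2.07e-08). Of the 12 alternatives that gave it an adjusted p, it lost its call in 1, where at least 3 NK UMIs were required, and DESeq2 with its independent filtering gave it none. The 9 monocyte markers, which include Ly6c2 and Ccr2, summed to 1438 to 2214 CPM in mature cells and 581 to 994 CPM in less mature cells. In mature cells 2 to 4 of the 9 had UMIs: Ly6c2 and Ccr2 in every library, Lyz2 in 3 of 4 and Cd68 in Cured replicate 2, while Csf1r and Ms4a6c were set to 0 by the gate. The part of monocyte RNA in the level of Ly6c2 was not tested. Emp3, a membrane protein, was higher at 0.53 (SE 0.10, adjusted p = 0.000646), and Itgb2, the integrin chain that pairs with CD11b, at 0.53 (SE 0.14, adjusted p = 0.0195). Itgb2 was lost without either Cured replicate or Relapsed replicate 2.

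Il7r, the interleukin-7 receptor and a marker of early NK and other innate lymphoid cells, showed the largest fall. Mature cells held 2, 0, 1 and 2 UMIs (9.19, 0, 6.55 and 8.54 CPM), against 16, 10, 8 and 11 UMIs (179, 97.7, 88.4 and 85.5 CPM) in less mature cells. Few cells carried these UMIs, 12.8%, 7.32%, 6.38% and 8.33% of less mature cells and 1.98%, 0%, 1.11% and 0.787% of mature cells. The fall therefore describes a small part of the less mature cells. The log2 fold change was -4.06 (SE 0.57, adjusted p = 1.26e-05), and 3 UMIs correspond to 12.8 to 19.7 CPM in a mature sum, so the mature level lies under that floor in each library. The list of 7 innate lymphoid cell markers, which holds Il7r, summed to 4.67 to 34.2 CPM in mature cells and 111 to 224 CPM in less mature cells, and its part was not tested. Thy1, a surface glycoprotein, stood at 64.3, 70.0, 13.1 and 38.4 CPM in mature cells, against 224, 205, 155 and 210 CPM in less mature cells (-2.07, SE 0.27, adjusted p = 3.91e-06). Cd7 stood at 455, 532, 334 and 470 CPM against 939, 928, 807 and 1018 CPM (-1.06, SE 0.12, adjusted p = 2.01e-07). Ccr2, the receptor that draws cells to CCL2, was at 70.0 to 115 CPM in mature cells and 168 to 280 CPM in less mature cells (-1.35, SE 0.22, adjusted p = 9.87e-05).

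Il7r, Ltb, Thy1 and Cd7 belong to a list of 20 genes named for less mature NK cells, of which 6 were tested, 4 fell and none rose. That list was chosen with earlier results of these data known. Eomes, also on it, was at -0.52 (SE 0.19, adjusted p = 0.134). Ly6e, an interferon-inducible surface protein, was at 347 to 588 CPM in mature cells and 995 to 1185 CPM in less mature cells (-1.16, SE 0.11, adjusted p = 2.07e-08). Serpina3g, a protease inhibitor, was at -1.56 (SE 0.26, adjusted p = 0.000117). Ctla2b was at -1.17 (SE 0.18, adjusted p = 4.66e-05). It is a near copy of the rule gene Ctla2a, so its value is uncertain and tied to the choice of cells.

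**Figure D3:**
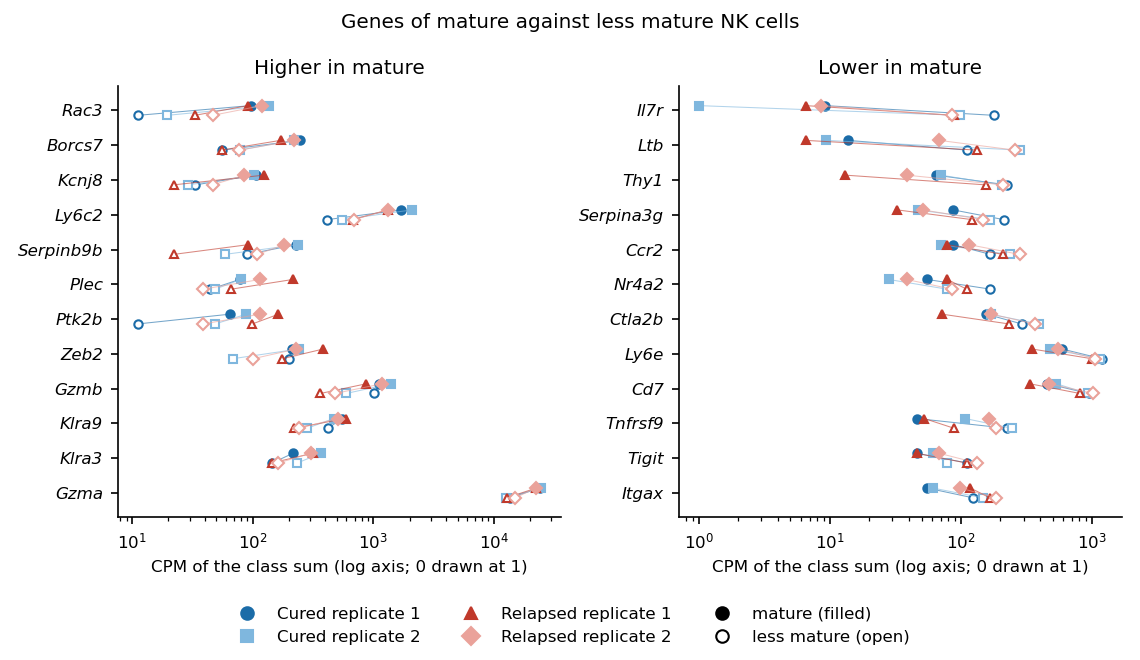
CPM (log x axes) of the 12 genes with the largest changes each way (rows), in mature cells (filled) and less mature cells (open), joined within each library, with a level of 0 drawn at 1. Il7r and Ltb lie lower in mature cells in all 4 libraries.

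Of 15 tested NK transcription factors, 2 rose. Zeb2 was at 211, 243, 386 and 230 CPM in mature cells, against 201, 68.4, 177 and 101 CPM in less mature cells (log2 fold change 0.97, SE 0.22, adjusted p = 0.00557), and was lost without Cured replicate 2. Klf2, a factor of quiescence and lymphocyte exit, was higher at 0.47 (SE 0.13, adjusted p = 0.0261) but was lost on leaving out any of the 4 libraries. Tbx21, which encodes T-bet, was at 129, 238, 151 and 179 CPM in mature cells, against 179, 87.9, 66.3 and 140 CPM in less mature cells (0.53, SE 0.25, adjusted p = 0.303).

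Other large rises were in genes of varied roles. Rac3, a small GTPase, was at 91.7 to 135 CPM in mature cells and 11.2 to 46.6 CPM in less mature cells (log2 fold change 1.91, SE 0.36, adjusted p = 0.000646). Its less mature level rested on 1, 2, 3 and 6 UMIs, so the size of this rise is uncertain. Borcs7, a subunit of the BORC complex that positions lysosomes, was at 170 to 248 CPM against 55.3 to 78.1 CPM (1.64, SE 0.25, adjusted p = 3.32e-05). Kcnj8, a potassium channel subunit, was at 85.4 to 124 CPM against 22.1 to 46.6 CPM (1.55, SE 0.35, adjusted p = 0.00484), and was lost without Cured replicate 2. Less mature cells held 3, 3, 2 and 6 UMIs of Kcnj8. Lgals1, the sugar-binding galectin-1, stood at 3892, 4245, 3157 and 3312 CPM in mature cells, against 1889, 2237, 1746 and 2579 CPM in less mature cells (0.76, SE 0.08, adjusted p = 7.78e-08), and passed in all 13 alternatives. Plec, a cytoskeletal linker whose exons overlap those of Parp10, was at 1.26 (SE 0.31, adjusted p = 0.00961), lost without Relapsed replicate 1. Ptk2b, the kinase PYK2, was at 1.13 (SE 0.31, adjusted p = 0.0279), lost without any 1 of the libraries other than Relapsed replicate 1.

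The 84 tested cytosolic ribosomal protein genes had a median log2 fold change of -0.21, against 0.00 over all genes tested. Negative values were found for 83 of 84, against 944 of all 1901 genes tested. The 39 that passed numbered 0 without the library block, 1 without the count filter and 10 without Cured replicate 2. They numbered 2 with DESeq2 with its independent filtering off, and 19 to 46 in the other settings. Of 19 immediate early genes, 1 rose and 4 fell. Nfkbia, the NF-kappa-B inhibitor, was at -0.81 (SE 0.19, adjusted p = 0.00557), lost without Cured replicate 1, and Nr4a2 at -1.18 (SE 0.31, adjusted p = 0.0195), lost without either Cured replicate or Relapsed replicate 2. Of 3 tested SRC and ABL family kinases, the drug's targets, none passed, and Lck was at -0.20 (SE 0.14, adjusted p = 0.561). Of the 9 interferon gamma response, 10 heat shock and 31 nuclear respiratory chain genes tested, none passed.

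The groups set mice that stayed cured against mice that later relapsed. In mature NK cells, 0 of 3023 genes (0%) passed between Cured and Relapsed libraries by edgeR's quasi-likelihood test without a block, and 181 had an unadjusted p under 0.05. The same counts from DESeq2 were 0 and 34. The 2 groups did not overlap for 1081 genes (35.8%). Without Relapsed replicate 2 the count was 64, 19 higher and 45 lower in Cured, while leaving out any other library gave 1 or 2. The higher depth of both Cured libraries runs alongside this comparison, and its part was not tested. Relapsed replicate 1 had 279 barcodes under 200 genes, against 28 and 25 in Cured replicates 1 and 2 and 24 in Relapsed replicate 2. It had the lowest median depth of mature cells, and was the only Relapsed library in the fit without Relapsed replicate 2. The part of these differences was not tested either.

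None of the effector genes passed. Gzma was at 24052 and 24634 CPM in Cured libraries, against 22520 and 22409 CPM in Relapsed libraries, a log2 fold change, Cured over Relapsed, of 0.07 (SE 0.13, adjusted p = 0.975). Gzmb averaged 1263 ± 195 CPM (SD) over the 2 Cured libraries and 1032 ± 218 CPM over the 2 Relapsed ones (0.23, SE 0.17, adjusted p = 0.923 by edgeR). Prf1 averaged 885 ± 10.2 CPM in Cured and 737 ± 32.4 CPM in Relapsed libraries (n = 2 each, 0.22, SE 0.16, adjusted p = 0.926 by edgeR). Of the 14 tested granule genes, 11 had positive fold changes, with a median of 0.16 against -0.02 over all genes, and none passed.

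The genes of smallest p were named without passing. Vim, an intermediate filament protein, was at 1245 and 1359 CPM in Cured libraries, against 694 and 871 CPM in Relapsed libraries. Its log2 fold change was 0.68 (SE 0.16, adjusted p = 0.568). Ctsd, the lysosomal protease cathepsin D, was at 1139 and 1406 CPM in Cured libraries, against 563 and 871 CPM in Relapsed libraries (0.76, SE 0.19, adjusted p = 0.568). Ugcg, the glucosylceramide synthase, was at 147 and 224 CPM in Cured libraries, against 426 and 320 CPM in Relapsed libraries (-1.04, SE 0.26, adjusted p = 0.568). These 3 genes did not overlap between groups, as held for 35.8% of the genes tested. For each of the 3, Relapsed replicate 1 stood furthest from the Cured libraries. Bub3, a mitotic checkpoint protein, was at 1.18 (SE 0.32) and Atp2a3, a calcium pump, at -1.21 (SE 0.33), both with an adjusted p of 0.772. The other 7, Sephs2, Mdh1, Ly6c2, Psd4, Picalm, Grk2 and Ctdsp2, had an adjusted p of 0.807 each.

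Several of these genes were ordered alike in other cells of the same libraries. In B-gated cells, Grk2, a kinase that desensitises G protein-coupled receptors, was at 78.9 and 74.9 CPM in Cured libraries, against 172 and 101 CPM in Relapsed libraries. Both Relapsed libraries also lay above both Cured libraries in B-gated cells for Ugcg, Atp2a3, Psd4 and Ctdsp2, with Relapsed replicate 1 the highest for each. Picalm was at 17.2 and 22.6 CPM in Cured B-gated cells, against 39.9 and 18.7 CPM in Relapsed B-gated cells, so Relapsed replicate 1 alone stood above. CD8 T-gated cells had at least 2 Cd3 and 1 Cd8 UMIs, at most 1 of the B cell gate genes and none of the NK and myeloid ones. In them both Relapsed libraries lay above both Cured libraries for Ugcg, Picalm, Grk2 and Psd4, but not for Atp2a3 and Ctdsp2. Psd4 differed little, at 23.7 and 19.0 CPM in Cured against 24.4 and 24.2 CPM in Relapsed libraries. Relapsed replicate 1 was the highest for Ugcg, Picalm, Grk2, Psd4 and Ctdsp2. In less mature NK cells, only Atp2a3 had both Relapsed libraries above both Cured libraries. It was at 55.9 and 87.9 CPM in Cured, against 99.5 and 109 CPM in Relapsed libraries. Picalm ran the other way there, at 67.1 and 58.6 CPM in Cured, against 55.3 and 15.5 CPM in Relapsed libraries. Ugcg, Grk2, Psd4 and Ctdsp2 overlapped between the groups in those cells. Of the 6 genes higher in Cured mature NK cells, Bub3 and Mdh1 were also higher in both Cured libraries of B-gated cells. Vim, Ctsd and Mdh1 were so in CD8 T-gated cells and in less mature NK cells, while Bub3, Sephs2 and Ly6c2 were not. Vim was at 321 and 422 CPM in Cured CD8 T-gated cells, against 182 and 317 CPM in Relapsed ones. In less mature NK cells Vim was at 1096 and 1250 CPM in Cured libraries, against 530 and 761 CPM in Relapsed libraries. The median mitochondrial share of mature NK cells was 1.19% and 1.28% in Cured libraries, against 1.63% and 1.28% in Relapsed libraries. The part of such a difference between whole libraries was not tested.

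Of 30 tested actin, tubulin and motility genes, 26 were positive (median 0.20), and of 86 ribosomal protein genes, 76 were negative (median -0.14), with none past the test in either list. Over all 3023 genes tested, 1449 were positive and 1574 negative (median -0.02).

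**Figure D4:**
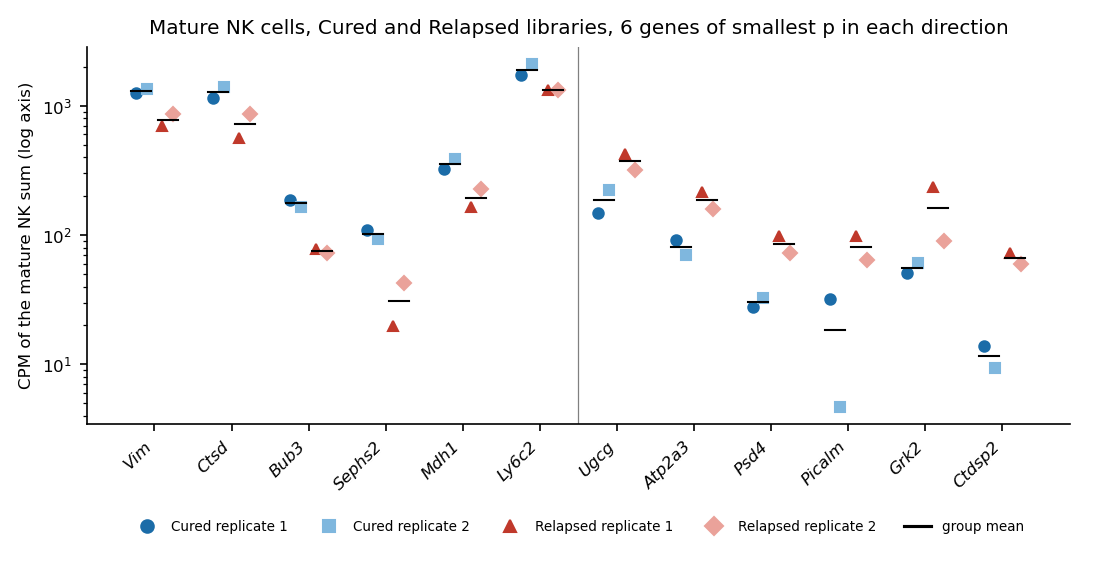
CPM (log y axis) of the 6 genes of smallest p in each direction (x axis) in mature NK cells of 2 Cured and 2 Relapsed libraries, with group means as lines. None passed the test.

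**Figure D5:**
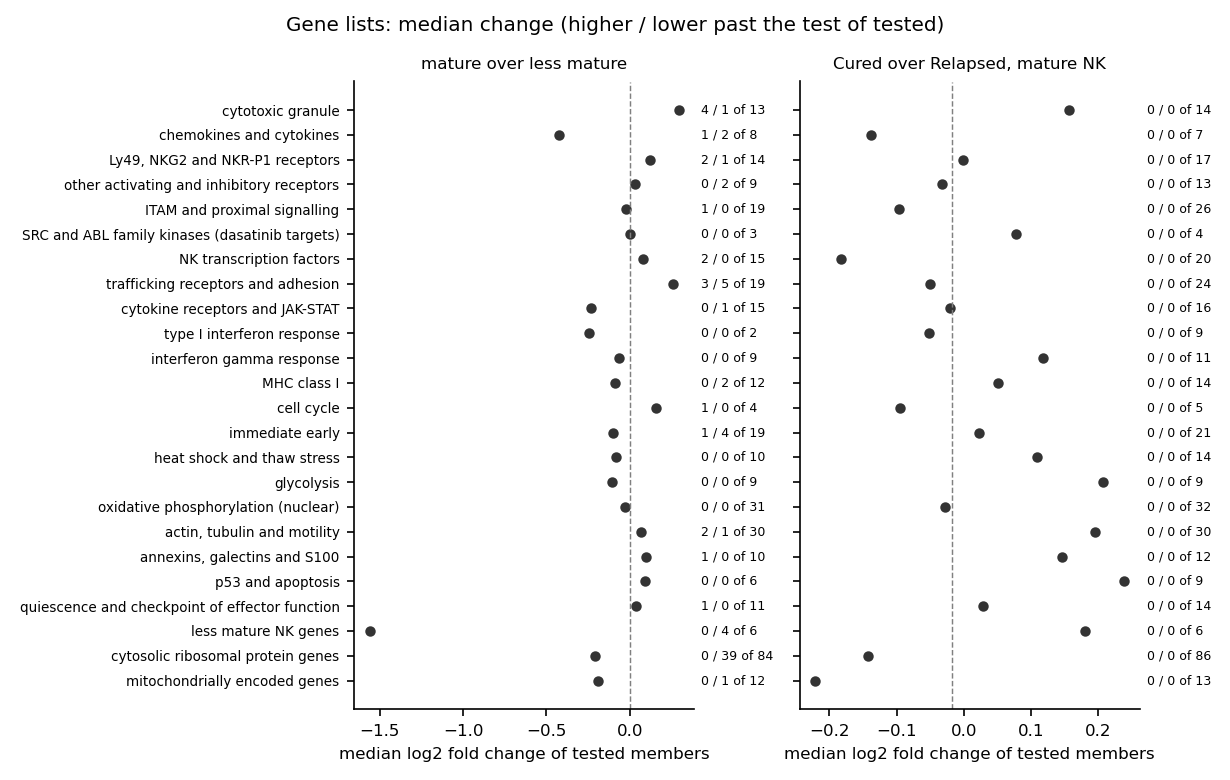
Median log2 fold change (x axes) of each gene list (rows), mature over less mature on the left and Cured over Relapsed in mature cells on the right. Dashed lines are the medians of all genes tested, and the numbers give members higher and lower past the test of those tested.

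Mature cells made up 66.0% of gated NK cells in Cured replicate 1 (exact binomial 95% interval 57.9% to 73.5%) and 62.1% in replicate 2 (54.4% to 69.5%). They made up 54.5% in Relapsed replicate 1 (46.6% to 62.3%) and 61.1% in replicate 2 (54.1% to 67.7%). Cured libraries averaged 64.1% ± 2.75 and Relapsed libraries 57.8% ± 4.60 (SD, n = 2 each), and the exact two-sided permutation test gave p = 0.333, the smallest p that 2 against 2 libraries allow. Of all kept cells, mature NK cells made up 2.61% ± 0.0942 in Cured and 2.87% ± 0.146 in Relapsed libraries (n = 2 each, exact permutation p = 0.333). That difference of -0.27 percentage points changed sign when the rule was applied at 1000 UMIs per barcode (0.067). Intervals cover counting error only.

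Whether the Cured against Relapsed effect differed between mature and less mature cells was tested as an interaction. Of 1901 genes, 0 (0%) passed by edgeR and 82 had an unadjusted p under 0.05. The same counts from DESeq2 were 0 and 1. Ly6c2 had the smallest p. In mature cells it stood at 1714 and 2097 CPM in Cured libraries, against 1323 and 1319 CPM in Relapsed libraries. In less mature cells it stood at 414 and 547 CPM in Cured libraries, against 674 and 691 CPM in Relapsed libraries. The interaction was 1.05 on the log2 scale (SE 0.20, adjusted p = 0.212). It passed with at least 3 NK UMIs required and without the count filter.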

How the data were processed

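Peripheral blood leukocytes were profiled in 4 libraries (2 Cured, 2 Relapsed) of 3 pooled mice each with the 10x Genomics 5′ kit, per the labels' protocols. The deposited values are raw UMI counts per gene and barcode over 32287 features. Cell Ranger 3.1.0 on mm10 gave the authors' counts, per the file headers and also per the submitters' processing notes, and the annotation release is not given in the sources used here. Depth was 7184045 to 10840397 UMIs over 3631 to 4383 barcodes per library.

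Cells were gated on these counts as the report states, and no doublet caller was run. UMIs were summed per library and class, the pool being the replicate. Sums were tested with edgeR 4.0.16 on R 4.3.3 (quasi-likelihood, robust, TMM factors, filterByExpr) with Benjamini-Hochberg adjustment over all genes and a threshold of 0.05. The SE is the size of the log2 fold change over the square root of F. CPM were computed here. Where nothing but the label separates pools, p-values measure the spread between these pools. Alternatives were DESeq2 1.42.0, other size factors, no count filter, a stricter gate, a wider margin, thinning to 1000 UMIs and each library left out. Thinning left out cells with fewer than 1000 UMIs. Leaving out the 2 mixed barcodes, and DESeq2 without its independent filtering, were chosen after seeing the data. With 1 library left in a group, that library is assumed to vary like the others. The tests were tested on simulated data.

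Named genes were up to 12 each way with the largest changes past the test the same sign in every library and at least 50 CPM in the higher class (mature cells), the 6 each way of smallest p at a mean of at least 20 CPM (outcome), the 3 of smallest p (interaction), a panel of 30 NK genes and members of 22 gene lists. The members, lists and rules were chosen with earlier results of these data known. Antigen receptor segments, Y-linked genes, Xist and mitochondrial, ribosomal or predicted genes were counted but not named by rank. Results of some genes that these rules name are not reported here. Coordinates were checked in GENCODE M21, and promoters are from RefSeq.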

Additional observations from a re-analysis of the deposited data

How the results depend on the processing

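Between mature and less mature cells, the 108 genes past the test became 28 with DESeq2 (of 96 given an adjusted p), 20 with its independent filtering off, 52 after thinning to 1000 UMIs and 21 without the library block, and 37 to 97 with 1 library left out. The other settings gave 81 to 117. Of the 24 genes named for their change, 12 passed with filtering off, 15 without the block and 9 of the 12 tested after thinning. Between Cured and Relapsed, the 0 genes became 3 after thinning and 1 to 64 with 1 library left out. With the replicate number as a block 6 genes passed, 2 higher and 4 lower. The deviations of Cured replicate 1 and Relapsed replicate 1 from their group means had a correlation of -0.036 over 3023 genes. With 2 libraries per group, this value cannot tell whether same-numbered libraries share more than a number. The interaction gave 2 genes without the count filter, 1 with at least 3 NK UMIs and 0 with any library left out. DESeq2 without filtering and the removal of the mixed barcodes were chosen after seeing the data.

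The mature share of gated NK cells, 6.27 percentage points higher in Cured, ranged from 3.01 to 9.53 with 1 library left out. The share of kept cells ranged from -0.368 to -0.162 points. It changed sign with at least 3 NK UMIs (0.0135), with sums differing by 1 left out (0.0715) and at 1000 UMIs per barcode (0.0674).

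No gene past the test with all libraries changed sign. Of 38 genes named between Cured and Relapsed, 14 did, none of them past that test, at these log2 fold changes. After thinning the values were Nkg7 -0.00835, Ccl5 -0.0481, Tbx21 -0.184, Klf2 -0.11, Il2rb -0.342, Cd7 -0.028. With at least 3 NK UMIs the values were Nkg7 -0.00222, Klrd1 0.016. With sums differing by 1 left out the values were Ccl5 -0.00978, Ccl3 -0.196, Klra8 0.0926, Tbx21 -0.105, Eomes -0.125. Without the count filter the values were Tyrobp 0.0114, Klrd1 0.0496. With DESeq2 the value of Klrd1 was 0.000378. With its filtering off the value of Klrd1 was 0.000378. With DESeq2's size factors in edgeR the value of Klrd1 was 0.00129. Without the mixed barcodes the value of Klrd1 was 0.014. With the replicate block the value of Cd160 was 0.0511. With 1 library left out, the values ranged for Ccl5 from -0.135 to 0.202, Ccl3 from -0.144 to 0.323, Tyrobp from -0.105 to 0.0329, Klrd1 from -0.0655 to 0.0687, Klra8 from -0.29 to 0.239, Klra3 from -0.522 to 0.181. They ranged for Tbx21 from -0.377 to 0.441, Eomes from -0.0457 to 0.289, Prdm1 from -0.785 to 0.379, Klf2 from -0.177 to 0.263, Cd160 from -1.25 to 2.15. Between mature and less mature cells, 3 genes not past the test changed sign. Without the count filter the values were Tyrobp 0.107, Klrk1 0.064. With sums differing by 1 left out the value of Klrd1 was -0.00448. With 1 library left out, the values ranged for Tyrobp from -0.0793 to 0.00954, Klrk1 from -0.206 to 0.0114. The cause was not tested for any of these. Sums of 39 to 60 less mature cells limit what low genes can show.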
